A study of Drosophila melanogaster with 4 samples.

Results

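The zinc-finger protein Su(var)3-7 belongs to the heterochromatin of *Drosophila*. The data below are the regions of Su(var)3-7 enrichment in the distal 1 Mb of chromosome arms 2L, 3L, 3R and X, the parts of these arms nearest the telomeres. A region belongs to the set if its midpoint in the authors' combined list falls within 1 Mb of the distal end of the assembled sequence, that is from 1 to 1000000 on 2L, 3L and X, or from 26905054 to 27905053 on 3R (FlyBase release 5). The rule found 312 of the 10603 regions of the combined list: 116 on 3L, 80 on 2L, 69 on X and 47 on 3R.

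Enrichment was mapped by ChIP-seq, the sequencing of DNA pulled down from fixed chromatin with an antibody, here Q3448. Embryos of *Drosophila melanogaster* were of the wild-type Oregon-R strain, at 14 to 16 h of development, and fixed in 1.8% formaldehyde. All samples share strain, genotype and stage. There were 2 ChIP libraries and 2 input libraries, each input being the control of the ChIP library of its own number, and no list gives a value for an input. Replicate 1 had 151 enriched regions in the distal 1 Mb of the 4 arms and replicate 2 had 177. Whole embryos hold many tissues, so a region says nothing about which cells carried the protein. The labels do not say whether the replicates came from separate embryo collections, and the spread between them may be technical. With a single ChIP group of 2 libraries no test across samples could be made. The values below are descriptions, read against the difference between the replicates.

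Su(var)3-7 binds the heterochromatin protein HP1, and the dose of either protein changes the silencing of genes placed next to heterochromatin. Telomeres of *Drosophila* are kept up by arrays of telomere-specific retrotransposons in place of telomerase repeats, and HP1 is part of the cap that protects them. Next to these arrays lie telomere-associated repeats, which can silence a transgene inserted among them. The distances given here start at the last assembled base of release 5, which is not the physical end of the chromosome. How reads from repeated sequence were placed is not stated, so enrichment in repeats near an end may be over- or undercounted. Regions are given by position without genes, since the only gene table used here belongs to release 6.

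The first comparison sets each distal window beside the interior of its own arm, meaning the sequence beyond 1 Mb from the distal end and beyond 5 Mb from the proximal end. Coverage means the share of a window's bases found within enriched regions. On 2L it was 11.8% in replicate 1 and 13.8% in replicate 2 in the distal 1 Mb, against 4.67% and 5.39% in the interior. The distal window of 3L was covered over 15.4% and 17.8%, against 6.29% and 6.76%. Coverage was thus higher distally on both arms and in both replicates, by 2.55-fold ± 0.0338 on 2L and 2.55-fold ± 0.129 on 3L (SD, n = 2). With the proximal sequence counted as interior the ratios were 1.20 ± 0.16 on 2L and 1.23 ± 0.15 on 3L. The replicate spread was thus large beside the excess over 1. In the higher-scoring 50% of each list the ratio of 2L was 4.06.

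The X chromosome had a smaller difference and 3R none that exceeded the replicate spread. On X the distal window was covered over 9.75% and 10.5%, against 6.25% and 7.16% in the interior, a ratio of 1.52 ± 0.0620. This ratio depended on the length of the window, at 0.997 with 500 kb and 3.24 with 2 Mb. On 3R the values were 4.58% and 6.31%, against 4.93% and 5.83%. The ratio on 3R was 0.929 in replicate 1 and 1.08 in replicate 2, so its direction changed with the replicate. In the combined list, which covers more sequence, the ratios were 2.32 on 3L, 2.05 on 2L, 1.39 on X and 0.946 on 3R. The 4 windows together were covered over 11.3% ± 1.24, and the 4 interiors over 5.88% ± 0.535 (SD, n = 2).

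Cut into windows of 1 Mb, the interiors give a scale for these values. The distal window of 2L exceeded all 17 interior windows of its arm, and that of 3L exceeded all 18, in each of the 3 lists. The highest interior window of 2L, from 6 to 7 Mb, reached 9.84% ± 1.76. That of 3L, from 16 to 17 Mb, reached 13.0% ± 1.03. On 3R the distal 1 Mb, at 5.44% ± 1.23, exceeded 14 of 21 interior windows in replicate 1 and 16 of 21 in replicate 2. In the combined list it exceeded 12 of 21. The median interior window of 3R had 4.17% by the mean of the replicates. On X the distal 1 Mb exceeded 14 of 16 in every list. The X windows above it were the next 2 megabases, with 25.3% ± 0.628 from 1 to 2 Mb and 12.0% ± 2.28 from 2 to 3 Mb.

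**Figure D1:**
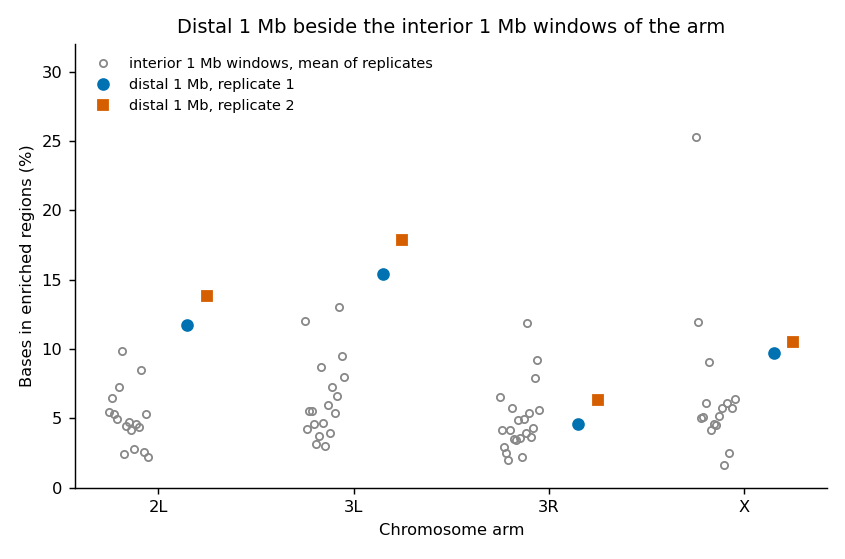
Percent of bases in enriched regions per 1 Mb window, by chromosome arm. Open circles are interior windows (mean of 2 replicates) and filled symbols the distal 1 Mb in replicate 1 and replicate 2. The distal values lie above every interior window on 2L and 3L, among them on 3R, and below 2 of 16 on X.

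The step at 1 Mb differed between arms. On 2L coverage fell from 12.8% ± 1.47 in the first megabase to 5.46% ± 1.00 in the second. On 3L it was 16.6% ± 1.70, then 12.0% ± 1.13 and then 4.26% ± 0.889 in the third. On 3R the first 3 megabases had 5.44% ± 1.23, 6.57% ± 1.07 and 4.17% ± 0.449. On X the order was the reverse of 2L, with 10.1% ± 0.562 in the first megabase and 25.3% ± 0.628 in the second (SD, n = 2 throughout). At the edge of the window, scores inside and outside differed most on 2L, where the outside region scored higher. The last member inside the edge had a score of 0.326 on 2L, 0.400 on X, 0.369 on 3L and 0.948 on 3R, with widths of 1368, 1805, 1916 and 2110 bp. The first region with its midpoint outside had 0.945, 0.419, 0.295 and 0.871, with widths of 3035, 1125, 1662 and 7714 bp. That of 3R crossed the edge, so its bases inside the window count in the coverage of 3R.

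Within the window, coverage did not fall off evenly from the chromosome end. It came in blocks separated by sparse sequence, and the distances of the blocks differed only in part between the arms. By the mean of the replicates, 3L and X shared their densest bin, 600 to 700 kb, at 27.1% and 28.9%. On 3L this rank held in replicate 2 alone. The 3L bin from 100 to 200 kb was higher in replicate 1, at 23.6% against 23.3%, and in the combined list, at 52.5% against 45.4%. From 600 to 700 kb, 2L had 1.66% and 3R 3.09%. From 200 to 300 kb, 2L and 3L had 19.6% and 19.7%. Pooled over the 4 arms, the bins of 100 kb held between 8.43% and 15.2% up to 900 kb, and 3.99% ± 0.151 in the last bin. The terminal bin, at 12.4% ± 0.0569, was no higher than the bin from 500 to 600 kb, at 14.2% ± 0.968, or from 600 to 700 kb, at 15.2% ± 1.51 (SD, n = 2). The arms thus differed in part in where their dense bins lay.

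**Figure D2:**
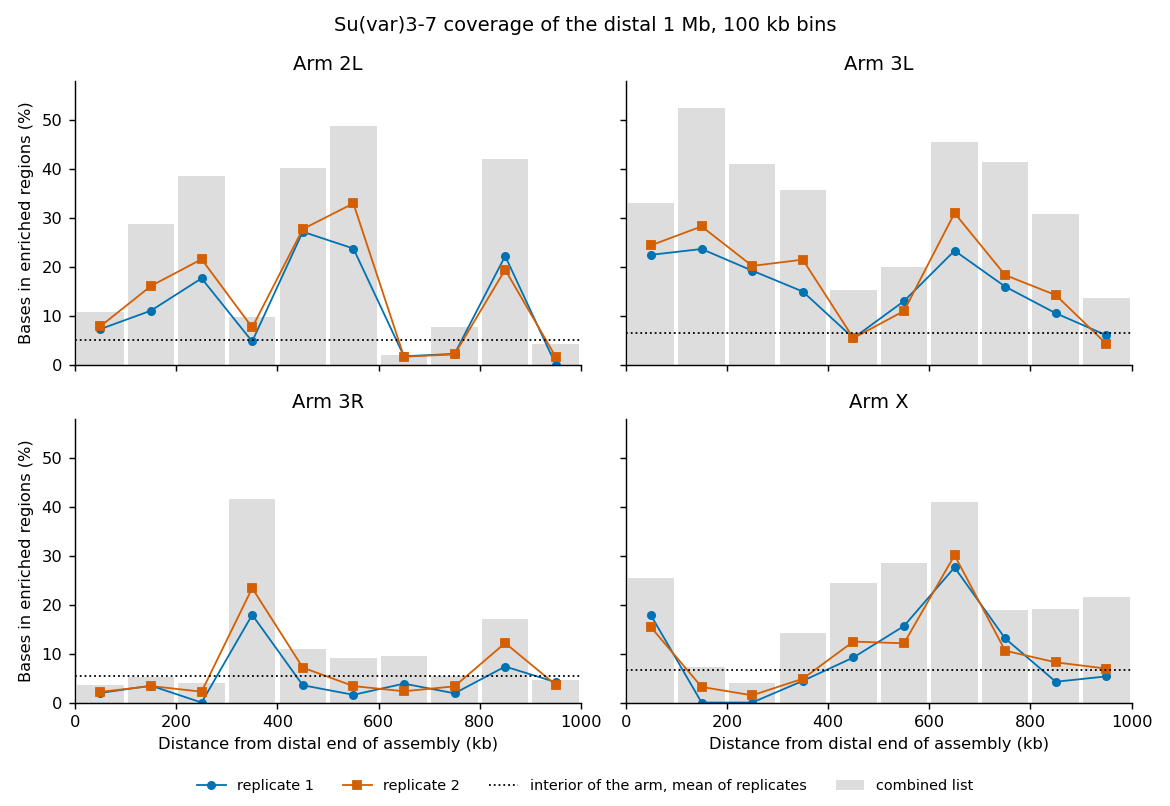
Percent of bases in enriched regions in bins of 100 kb against distance from the distal end of the assembly (kb), for 2L, 3L, 3R and X. Bars are the combined list, circles and squares the 2 replicates, and the dotted line the interior of the arm. Both replicates peak in the same bins: 400 to 600 kb on 2L, 100 to 200 kb and 600 to 700 kb on 3L, 600 to 700 kb on X, and 300 to 400 kb on 3R.

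On 2L the densest stretch lay from 400 to 600 kb. Coverage there was 27.2% in replicate 1 and 27.7% in replicate 2 from 400 to 500 kb, and 23.7% and 33.0% from 500 to 600 kb. In both replicates the bin from 400 to 500 kb exceeded all 170 interior bins of 100 kb on this arm. In the combined list it had 40.1%, and 6 of the 170 interior bins were higher. A second block from 800 to 900 kb had 22.2% and 19.4%, and another from 200 to 300 kb had 17.6% and 21.6%. From 300 to 400 kb coverage was 4.73% and 7.60%, a little above the interior. It was lower from 600 to 700 kb, at 1.70% and 1.62%, and past the last block from 900 to 1000 kb, at 0% and 1.58%. The longest stretch without a combined-list region on 2L measured 98.6 kb, from 603497 to 702051. The terminal 100 kb had 7.27% and 7.84%, which is 0.566 ± 0.0368 times the coverage of the remaining 900 kb (0.592 in replicate 1 and 0.540 in replicate 2).

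On 3L enrichment was spread over most of the window. Of its 10 bins, 8 lay above the interior value of the arm in both replicates, compared with 7 on 2L, 5 on X and 2 on 3R. The highest were 600 to 700 kb, with 23.3% and 31.0%, and 100 to 200 kb, with 23.6% and 28.3%. The lowest were 400 to 500 kb, with 5.42% in each replicate, and 900 to 1000 kb, with 6.00% and 4.24%. The terminal 50 kb held no region in any of the 3 lists. From 50 to 100 kb coverage reached 44.9% and 48.8%, so the terminal 100 kb as a whole had 22.5% and 24.4%, or 1.48 ± 0.0749 times the rest of the window. The longest stretch without a combined-list region was 53.3 kb on this arm, from 914154 to 967489, shorter than on the other 3.

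On 3R a single bin carried much of the enrichment. From 300 to 400 kb coverage was 17.9% in replicate 1 and 23.4% in replicate 2, and from 350 to 400 kb it was 32.4% in each. The other 9 bins had between 0% and 12.2% in either replicate, and 7 of the 10 bins lay below the interior value of the arm in both. The longest stretch without a combined-list region on 3R measured 114.7 kb, from 27638534 to 27753271, the longest of the 4 arms in that list. In replicates 1 and 2 the longest on 3R were 182.8 and 131.6 kb, and those of X were longer, at 344.5 and 137.4 kb. The terminal 100 kb of 3R had 1.97% and 2.18%, or 0.363 ± 0.0582 times the rest of the window.

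On X most of the enriched sequence lay at the very end and from 368 kb inward. The terminal 50 kb was covered over 35.6% in replicate 1 and 30.8% in replicate 2. Between 100 and 300 kb coverage was 0% in replicate 1 and 3.19% and 1.48% per bin in replicate 2. Replicate 1 had no region over 344.5 kb, from 23458 to 367946. Replicate 2 had its longest such stretch, 137.4 kb, from 231708 to 369135, and the combined list one of 112.3 kb, from 255765 to 368059. Coverage then rose to 27.6% and 30.1% from 600 to 700 kb. From 650 to 700 kb it was 54.2% and 56.7%, the highest of the 80 bins of 50 kb in either replicate.

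The next question was what lies at the assembled ends themselves of the 4 arms. X was enriched from its first bases. The first 25 kb of X were covered over 71.3% in replicate 1 and 55.4% in replicate 2, and the combined list covered 91.9%. On 2L the same length had 9.20%, 9.74% and 15.5%, on 3R it had 7.87%, 8.72% and 10.5%, and on 3L it had no region. Both replicates therefore placed X above the other 3 arms, by more than they differed from each other. The length of 25 kb was chosen after the data were seen.

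**Figure D3:**
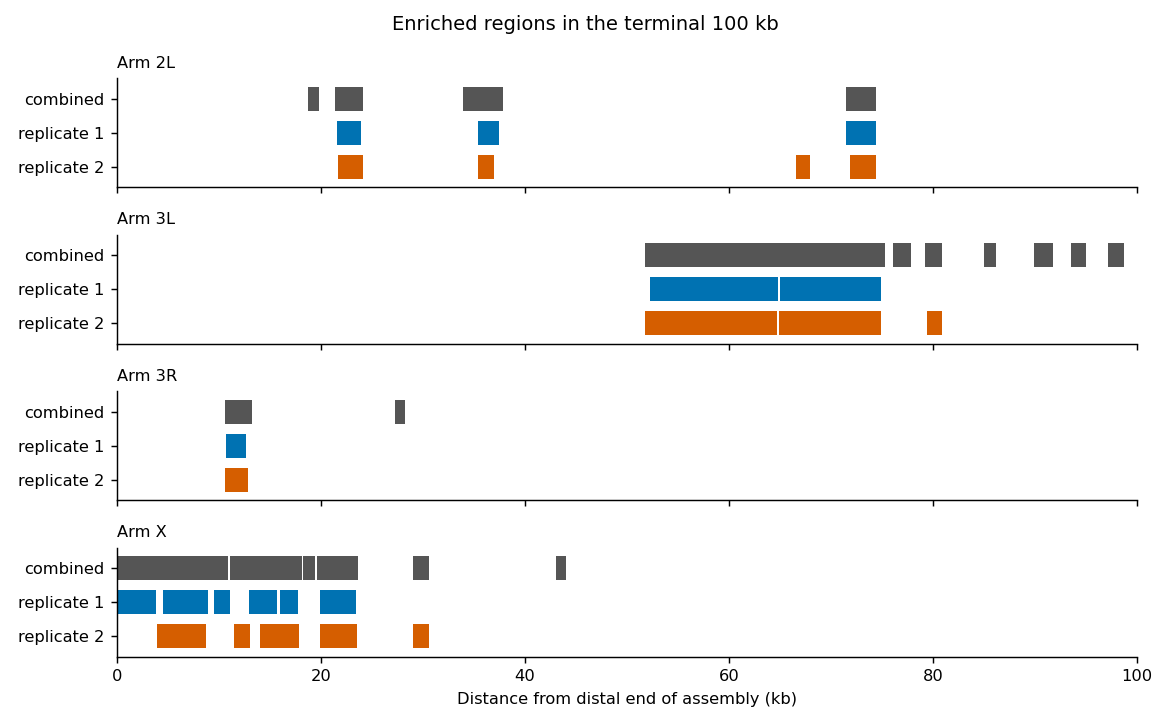
Enriched regions in the terminal 100 kb of each arm, drawn to scale against distance from the distal end of the assembly (kb). Rows are the combined list, replicate 1 and replicate 2. On X regions run closely from the first bases to 23.6 kb, with short ones up to 44.0 kb, and on 3L a block from 51.8 to 75.3 kb follows an empty start, with short regions beyond it, and 2L and 3R hold short isolated regions.

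The member nearest the end of X ran from 77 to 10837 (10761 bp), with a score of 1.32 in the combined list. The deposited score is a single number per region whose scale is not stated, so it only ranks and describes regions within a list. Replicate 1 had 3 regions there, at 69 to 3807 (score 1.36), 4523 to 8928 (1.50) and 9490 to 11038 (1.08). Replicate 2 had a single region, at 3899 to 8760, with a score of 1.36. The replicates thus shared the middle of the member, while its first 3.8 kb and the region at 9490 to 11038 were listed in replicate 1 alone.

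The second member of X, 11084 to 18161 (7078 bp), had a combined score of 1.13. Replicate 1 listed 12915 to 15693 with 1.81 and 15977 to 17754 with 1.01. Replicate 2 listed 11498 to 13017 with 1.02 and 13976 to 17812 with 1.21. The score of 1.81 was as high as or higher than 97.3% of all scores of replicate 1. The highest score of replicate 2 at this end, 1.36, stood at 91.6% of its own list. The third member, 18252 to 19378 (score 0.699), overlapped neither replicate. The fourth, 19568 to 23573 (4006 bp, score 0.899), was found at nearly the same ends in both, as 19896 to 23457 (0.934) and 19883 to 23505 (1.02). Past this point the enrichment stopped in replicate 1, and replicate 2 had a further region at 28992 to 30550 with a score of 0.588.

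The block nearest the end of 3L was the widest of all 312 members. It ran from 51787 to 75332 (23546 bp), with a combined score of 1.34. Each replicate split it at nearly the same base. Replicate 1 had 52243 to 64854 (score 1.00) and 65039 to 74881 (1.50). Replicate 2 had 51808 to 64760 (1.27) and 64900 to 74913 (1.61). In both, the piece farther from the chromosome end scored higher. From 50 to 75 kb the 3 lists covered 89.8% (replicate 1), 91.9% (replicate 2) and 92.9% (combined).

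The members nearest the ends of 2L and 3R were short. On 2L the first, 18676 to 19764 (score 0.397), overlapped neither replicate, and the second, 21353 to 24130 (0.466), had scores of 0.551 and 0.548 in replicates 1 and 2. On 3R the first, 27891850 to 27894471, lay 10.6 kb from the end and had a score of 0.534, with 0.513 and 0.643 in the replicates. The second, 27876796 to 27877851 (score 0.302), overlapped neither. On both arms the terminal member found in both replicates thus scored below the median of the whole list in replicate 1 (0.628) and in replicate 2 (0.718). In the combined list both members scored above the whole-list median of 0.433. The interior medians in replicates 1 and 2 were 0.520 and 0.633 on 2L, and 0.515 and 0.619 on 3R. The 2L member was above its interior in replicate 1 only, and the 3R member in replicate 2 only.

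The following comparison concerns width and score. Members were mostly narrow. The median width was 1917 bp and 177 of 312 (56.7%) measured under 2 kb, with a range from 1001 to 23546 bp. The median was 1797.5 bp in the interiors of the 4 arms and 1981 bp over the whole list. A small number were wide: 8 of 312 (2.56%) reached 10 kb, of which 3 lay on 2L, 3 on X and 2 on 3L. In the interiors 25 of 4254 (0.588%) did so, and in the whole list, with its pericentric sequence, 434 of 10603 (4.09%). Median widths in the replicates were 2020 and 2083 bp distally, and 1944.5 and 1926.5 bp in the interiors.

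Scores of the members were close to those of the interiors. The combined median was 0.404 distally, 0.398 in the interiors and 0.433 over the whole list. In replicate 1 the medians were 0.566 distally and 0.544 in the interiors, and in replicate 2 they were 0.658 and 0.650. By arm the combined distal medians were 0.447 on X, 0.408 on 2L, 0.381 on 3L and 0.377 on 3R. This order held in both replicates, with 0.657 and 0.773 on X, 0.590 and 0.672 on 2L, 0.556 and 0.642 on 3L, and 0.518 and 0.596 on 3R. The high place of X was not particular to the distal window. In the interiors the combined medians were 0.452 on X, 0.381 on 2L, 0.382 on 3L and 0.380 on 3R. X was also highest among the interiors of each replicate, at 0.609 and 0.740. The highest 10% of scores of the combined list, the limit being 1.05, took in 11 of the 312 members (3.53%) and 68 of the 4254 interior regions (1.60%). In the replicates the same share of the list took in 5 of 151 (3.31%) and 6 of 177 (3.39%) distal regions, against 0.894% and 2.11% of interior ones. Members therefore lay under the 10% of the whole list and above the interiors in each list. Pooled over the 4 arms, the combined median of each 100 kb bin lay between 0.378 and 0.447, while bins of single arms, some with very few regions, ran from 0.280 (3R, 100 to 200 kb) to 0.948 (3R, 900 to 1000 kb), with 0.799 in the terminal bin of X. In the replicates the terminal 100 kb had the highest pooled median, 1.00 over 12 regions in replicate 1 and 0.897 over 13 in replicate 2, against at most 0.657 and 0.736 in the other bins. Of those regions, 6 and 5 lay on X and 2 and 3 on 3L.

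**Figure D4:**
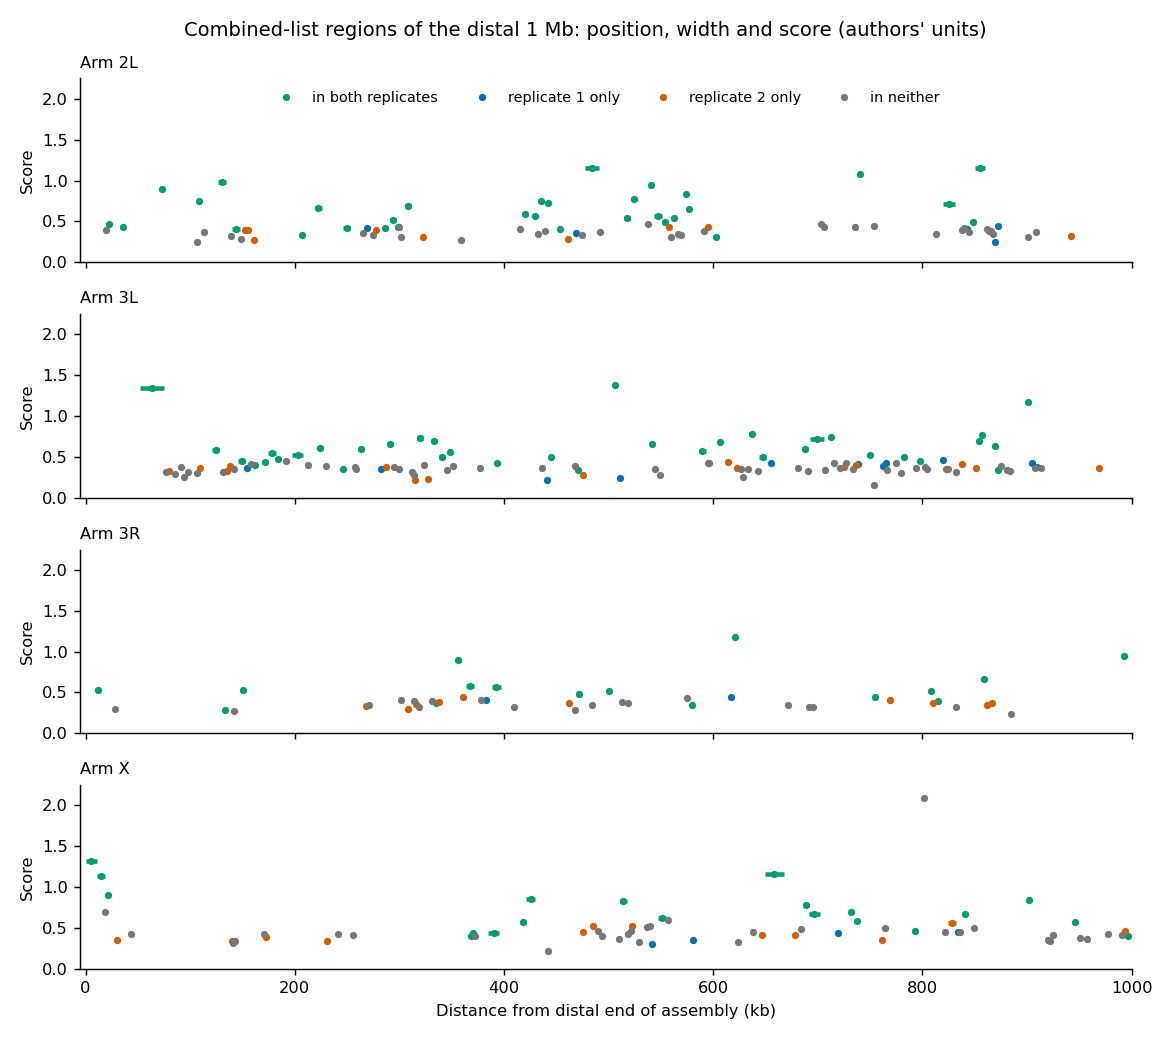
Each combined-list region of the distal 1 Mb as a bar at its distance from the distal end (kb), drawn to its width, with the authors' score on the vertical axis, for 2L, 3L, 3R and X. Colours give the replicates that hold an overlapping region. Scores above 1.05 occur at scattered distances, and the one at 2.09 on X overlaps no replicate region.

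The highest-scoring members found in both replicates lay at separate places along each arm. On 2L the first was 849965 to 860195 (10231 bp, combined score 1.15), with 1.21 in replicate 1 and 1.38 in replicate 2. Close behind were 477748 to 491305 (13558 bp, 1.15), the widest member of the arm, and 739088 to 741298 (2211 bp, 1.07). The latter was the only region of its 100 kb bin in either replicate and scored 1.25 and 0.996 there. The next were 126876 to 134076 (score 0.982) and 538676 to 542657 (0.943). The second widest member of 2L, 819718 to 830733 (11016 bp), had a score of 0.717.

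On 3L the first was 504879 to 507286, only 2408 bp wide, with a combined score of 1.38 and replicate scores of 1.37 and 1.41. It had the highest combined score of all members found in both replicates. The terminal block described above came second. The third was 898677 to 902685 (4009 bp, combined score 1.17), with 1.22 and 1.28 in the replicates. The next, 634205 to 639310 (score 0.775) and 855667 to 858880 (0.768), scored much lower. After the terminal block, the widest members of 3L were 692421 to 705960 (13540 bp, score 0.722) and 197820 to 207449 (9630 bp, 0.518). Both scored well below the terminal block, and above the 3L median of 0.381.

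On 3R the highest score was that of 27282834 to 27285814 (2981 bp, combined 1.18), with 1.16 and 1.37 in the replicates. It was the only member of 3R within the top 10% of the list. The second was 26911257 to 26913366 (score 0.948), 992 kb from the end. The next after it and the last of the 5, 27546396 to 27550691 (0.897) and 27534027 to 27541623 (0.583), lay in the dense bin from 300 to 400 kb. The same bin held the widest member of the arm, 27508064 to 27516755 (8692 bp, score 0.564). The fourth was 27044196 to 27049148 (4953 bp, score 0.665). No member of 3R reached 10 kb.

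On X the terminal cluster supplied 3 of the 5 highest scores. Of the others, 649183 to 667560 (18378 bp) had a combined score of 1.16 and was called as a single region in each replicate, with 1.14 and 1.30. It was the second widest of the 312 members. Near it, 691358 to 701849 (10492 bp) had a score of 0.669. The remaining region, 420861 to 429984 (9124 bp), had a combined score of 0.854 and 1.08 and 1.16 in the replicates.

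The last comparison asks how many members the replicates hold. Of the 312 members, 104 (33.3%, 95% Wilson interval 28.3 to 38.7) overlapped at least 1 bp of a region in both replicates, against 38.6% of the whole combined list and 29.6% of the interiors. A further 22 overlapped replicate 1 alone and 48 replicate 2 alone. The other 138 (44.2%, 38.8 to 49.8) overlapped neither, against 38.7% of the whole list and 46.6% of the interiors. The intervals hold counting error alone and assume independent regions, which neighbours are not. Members in both had a median width of 4007.5 bp and a median score of 0.580, and they held 59.1% of the members' bases. Members in neither had medians of 1310.5 bp and 0.366 and held 23.1% of the bases. Their median width lay close to 1301 bp, the narrowest region of either replicate list, while the combined list went down to 1001 bp. How far this difference between the lists bears on the share in neither was not tested. Interior regions in both replicates had medians of 2939 bp and 0.534 and held 48.2% of the bases.

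By arm, members in both made up 40.0% on 2L (30.0 to 51.0), 34.0% on 3R (22.2 to 48.3), 31.0% on 3L (23.3 to 39.9) and 29.0% on X (19.6 to 40.6). These intervals overlap, so no order of the arms can be read from them. By distance the share was 8 of 19 members in the terminal 100 kb (42.1%) and 5 of 21 in the last bin (23.8%), counts too small to rank the bins. Among the 104, the replicate scores had a Spearman rho of 0.802 across members, which share libraries and are not independent. Replicate 2 gave the higher score in 83 of the 104, and the median score of its whole list was higher too, at 0.718 against 0.628.

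**Figure D5:**
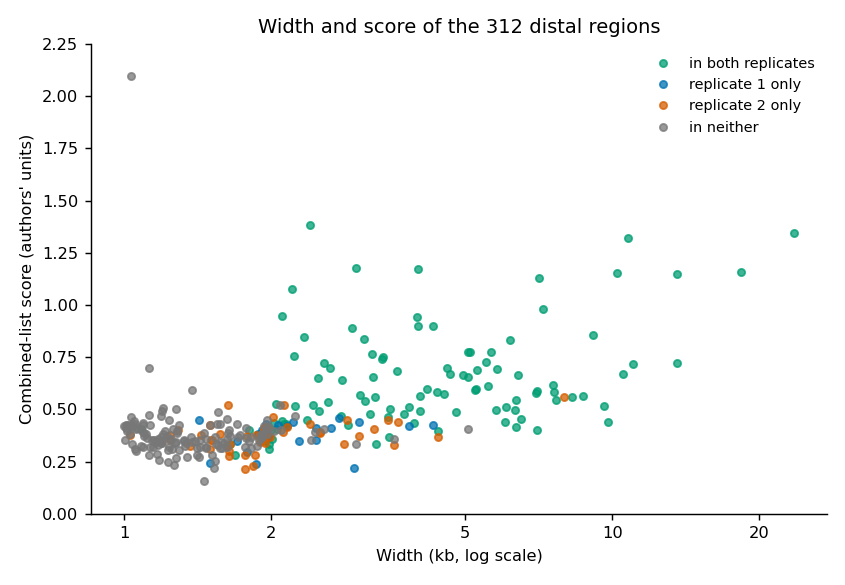
Width (kb, log scale) against the authors' combined-list score for the 312 members, coloured by the replicates that hold an overlapping region. Members in both replicates extend to large widths and to scores up to 1.38. Of the 138 in neither, 123 lie below 2 kb and 0.5, and a narrow region at 2.09 lies above all other members.

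The member with the highest score of all, X 800717 to 801752, overlapped no region of either replicate. Its combined score was 2.09 and its width 1036 bp. The narrowest region anywhere in the replicate lists measured 1301 bp in each, so a region of this width occurs in neither list. Among the 11 members within the top 10% of scores it was the only such case, and in the interiors 14 of 68 such regions overlapped neither replicate, with a median width of 1111 bp.

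Seen from the replicates, 121 of the 151 distal regions of replicate 1 (80.1%, 73.1 to 85.7) had a partner in replicate 2, against 75.8% over its whole list and 75.4% in the interiors. For replicate 2 the count was 119 of 177 (67.2%, 60.0 to 73.7), against 79.5% and 66.2%. The distal share was thus close to that of the interiors in both directions. Replicate 2 had the higher coverage in 28 of the 40 bins of 100 kb and replicate 1 in 12. Across these 40 bins the coverages of the replicates had a Pearson r of 0.956 and a Spearman rho of 0.956, given as a description, since neighbouring bins are not independent. The largest gap, 9.24 percentage points, was in the bin of 2L from 500 to 600 kb. Bases covered in both replicates made up 0.564 of those covered in either (Jaccard index), and the arms ranged from 0.524 on X to 0.617 on 2L.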

How the data were processed

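Per the submitters' processing notes, the aligner was Bowtie 0.12.7. The authors deposited 3 lists of enriched regions in coordinates of FlyBase release 5, per the file headers: 1 for each ChIP replicate and 1 combined list. The deposited score of a region has no stated scale. The region caller, its thresholds and the way the lists were combined are not stated, and a fixed limit would leave weaker binding out. The lists hold no read counts, so depth is unknown.

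Distances were counted from the distal end, which has the highest coordinates on 3R and the lowest on the other 3 arms. Covered bases were clipped to the window or bin. Rows labelled as enriched were used, and the 1 depleted region of replicate 1 was left out. Overlap needed 1 bp, a replicate score is that of the region with most shared bases, and shares carry 95% Wilson intervals (statsmodels 0.14.6, Python 3.11.15). Interval functions were tested on simulated data. Regions named on each arm were the 5 highest-scoring found in both replicates, the 3 widest, the 2 nearest the end and the longest stretch without a member. The window, members, lists and comparisons were chosen with earlier results of these data known.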

Additional observations from a re-analysis of the deposited data

How the results depend on the processing

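The lists have 2 replicates, unknown depth and no stated threshold, so an uncovered base is not shown to lack Su(var)3-7, and a move is judged against the spread of only 2 values. Of 144 alternative values, 76 stayed within that spread or within the interval for counting error, and 68 moved. Those that stayed include 14 values without replicate 1 and 14 without replicate 2. These could not have moved, because each of 2 values always lies within their SD of the mean, so they say nothing about stability. No paired analysis was possible because the inputs, which share replicate numbers with the ChIP libraries, have no values of their own. The combined list, which covers more sequence, gave distal coverages of 32.9% on 3L, 23.3% on 2L, 20.5% on X, 11.1% on 3R and 21.9% over the 4 arms, and the higher-scoring 50% of each list gave 8.72%, 7.39%, 7.71%, 1.96% and 6.45%. With a window of 500 kb coverage was 14.9% on 2L, 18.5% on 3L and 6.89% on X, and with 2 Mb it was 9.13%, 14.3% and 17.7%.

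The ratio of distal to interior coverage stayed above 1 on 2L and 3L and over the 4 arms in every alternative run. The ratio was lowest with proximal sequence counted as interior. There it was 1.20 ± 0.16 on 2L, 1.23 ± 0.15 on 3L and 1.11 ± 0.11 over the 4 arms (SD, n = 2). On 2L it was 2.05 in the combined list, 4.06 in the higher-scoring 50%, 1.20 with proximal sequence counted as interior, 2.08 as regions per Mb, 1.82 with 2 Mb and 2.86 with 500 kb. In the same order it was 2.32, 3.51, 1.23, 2.03, 2.30 and 2.75 on 3L, and 1.39, 1.87, 1.29, 1.19, 3.24 and 0.997 on X, so on X the distal excess was absent within 500 kb. Over the 4 arms the first 5 of these settings gave 1.70, 2.51, 1.11, 1.58 and 2.14. On 3R the ratio of 1.01 fell to 0.646 with proximal sequence, rose to 1.12 with 2 Mb and 1.21 with 500 kb, and lay below 1 in 4 further settings and in replicate 1 alone, within the spread.

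The ratio of the terminal 100 kb to the rest of the window was 0.435 on 2L, 1.01 on 3L and 1.28 on X in the combined list, and 0.356, 3.18 and 2.38 in the higher-scoring 50%, which left none at the end of 3R (0). With a terminal 50 kb it was 3.75 on X, 0.648 on 2L, 0 on 3L and 0.767 on 3R, and with 200 kb it was 0.875, 0.786, 1.69 and 0.461. Its direction thus turned with the bin length on 3L and X, where most covered bases of the terminal 100 kb lie at 51.8 to 75.3 kb and within the first 23.6 kb. With 50% reciprocal overlap, members in both replicates made up 22.1%, and partners were found for 62.9% of replicate 1 and 53.7% of replicate 2 regions. A single replicate matched 40.4% to 48.7% of members, because only 1 list has to match. Within 500 kb, 86.7% of replicate 1 regions had a partner. The median width was 3564 bp in the higher-scoring 50%, 2008 bp with neighbours under 500 bp apart merged and 1976 bp within 500 kb, and its mean was 2804 bp. The median score of the higher-scoring 50% was 0.571.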

Other observations

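The combined list did not take in every replicate region of the distal windows. Of 151 regions of replicate 1, 150 overlapped a combined-list region, and of 177 of replicate 2, 174 did. The region missed from replicate 1 was X 778654 to 780008 (score 0.588). Those missed from replicate 2 were 2L 66614 to 67942 (0.573), 2L 386792 to 388247 (0.950) and X 770659 to 772016 (0.666). The region at 386792 on 2L scored above the replicate 2 median of 0.718, and the other 3 scored below the medians of their lists.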
